A study of Mus musculus with 830 samples.

Results

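Ion channel genes were followed through the first endocrine cells of the mouse gut tube. The set holds 136 of the 26313 genes in the deposited read count table: every symbol that starts with Kcn, Cacn, or Scn and a digit, plus Abcc8, without 4 antisense names. It covers 40 voltage-gated potassium pore genes, 14 tandem-pore potassium genes, 8 calcium- or sodium-activated potassium pores, 16 inward rectifier genes (Abcc8 counted with them) and 17 potassium channel partners. The calcium side has 10 pore and 16 partner genes, and the sodium side 10 pore and 4 beta genes. Roles go by the symbol alone, not by how a channel is gated. Kcnu1 thus counts with the calcium- or sodium-activated pores, and the Kcnf, Kcng, Kcns and Kcnv genes with the voltage-gated pores. 1 further symbol, Kcnq1ot1, is a noncoding RNA that the naming rule takes in, and its level lay between 162 and 284 CPM in each of the 11 pools described below. Kcna3 and Kcne4 had no read, and 10 members, those 2 included, had fewer than 10 reads in all cells together.

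Each of the 830 samples is a cell of the endoderm or gut of an embryo of the cross C57BL/6XC3H. The cells were stained for EpCAM, found on the surface of epithelia, sorted, and sequenced by Smart-seq3xpress, which reads full-length transcripts in plates. In the 333 Ngn3Cre cells (genotype Ngn3-Cre; Ai6) a Cre recombinase under control of Neurog3 switches on a fluorescent reporter for good in a cell and its descendants. The 326 HZ cells (Ngn3-GFP/+) carry GFP at 1 Neurog3 allele and the 171 HM cells (Ngn3-GFP/GFP) at both, and no group without a reporter was analysed here. Stages are 15, 18, 21, 24 and 27 somites, with no embryo named, so cells were summed into pools of 1 genotype and stage. The 11 pools of at least 10 cells are Ngn3Cre at 21, 24 and 27 somites, HM at 15, 18, 21 and 24, and HZ at 18, 21, 24 and 27.

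Hormone cells are electrically excitable. In the mature pancreatic islet, ATP closes the KATP channel, a complex of the pore Kcnj11 and the sulphonylurea receptor Abcc8; the membrane then depolarises, voltage-gated calcium channels open, and calcium triggers release of hormone granules. Tandem-pore potassium channels carry the leak current that sets the resting potential, and voltage-gated and calcium-activated potassium channels end each action potential. Neurog3 is the factor that starts the endocrine programme.

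Promoters of 3 members on which the results turn are given from the RefSeq table of GRCm38.p6, each from 250 bases before to 50 bases after the transcript start, 5′ to 3′ on the gene's strand. Kcnk16 and Kcnk5 are neighbouring tandem-pore genes that differed between cell classes in opposite directions, and Cacna2d1 differed both between classes and between HM and HZ. Capitals mark the E-box CAGATG (or CATCTG, the same motif on the other strand), a form of the site that basic helix-loop-helix factors such as Neurog3 are known to bind.
Kcnk16 (chr14:20269220-20269519, minus strand): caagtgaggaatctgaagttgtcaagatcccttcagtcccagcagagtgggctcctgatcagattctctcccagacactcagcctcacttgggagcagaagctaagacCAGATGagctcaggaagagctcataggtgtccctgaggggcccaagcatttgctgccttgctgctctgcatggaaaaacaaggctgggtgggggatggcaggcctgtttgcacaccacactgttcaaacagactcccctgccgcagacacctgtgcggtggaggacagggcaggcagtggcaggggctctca
Kcnk5 (chr14:20181733-20182032, minus strand): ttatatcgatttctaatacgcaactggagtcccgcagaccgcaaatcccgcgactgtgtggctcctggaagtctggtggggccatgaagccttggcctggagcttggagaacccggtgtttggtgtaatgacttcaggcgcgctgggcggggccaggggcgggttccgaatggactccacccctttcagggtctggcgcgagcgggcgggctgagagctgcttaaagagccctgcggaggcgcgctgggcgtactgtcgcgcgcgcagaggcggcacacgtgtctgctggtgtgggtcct
Cacna2d1 (chr5:15934441-15934740, plus strand): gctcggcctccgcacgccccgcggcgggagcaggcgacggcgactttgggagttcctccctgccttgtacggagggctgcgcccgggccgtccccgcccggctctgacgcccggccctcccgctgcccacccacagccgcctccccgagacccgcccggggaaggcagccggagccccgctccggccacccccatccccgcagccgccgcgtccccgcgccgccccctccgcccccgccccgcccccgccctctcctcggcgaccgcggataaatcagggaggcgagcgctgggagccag
The Kcnk16 window holds 1 match, and these letters are not in the other 2 windows. Of all windows in the table, a share of 17.2% among 32851 promoters holds the motif, as do 20.1% of 134 promoters of 99 members. Of the 20 members higher in endocrine-marker cells (below), 10 are in the table, with 16 promoters, and 7 of these promoters (43.8%) hold it. Counted by gene, 6 of these 10 have it, as do 24 of the 99 members and 5196 of all 27025 genes. These shares are descriptions of the sequence and say nothing of binding; Abcc8 and Kcnj11 are not in the table.

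The depth of a cell ran from 1400 to 2525083 reads (median 452597), and that of a pool from 8299225 to 70763553 reads. Median depth was 626967 reads in HM cells, 378157 in HZ and 465918 in Ngn3Cre, and no cells had identical counts. Neurog3 reads were lower in every HM pool (5.95 to 11.5 CPM without scaling) than in every HZ pool (81.1 to 133 CPM) and highest in Ngn3Cre (153 to 557 CPM). By marker genes that include no channel, 444 cells were endocrine-marker cells, 56 neural, 40 hepatic and 290 remaining. HM had 6 endocrine-marker cells of 171, HZ 171 of 326 and Ngn3Cre 267 of 333. 38 endocrine-marker cells sat at the minimum of 4 markers, and 26 remaining cells had 3. The 4 blood markers together stayed at or below 1.10 CPM in every pool.

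Endocrine-marker cells differed from the remaining cells of the same genotype and stage in 22 channel genes. The KATP subunits Abcc8 and Kcnj11, the tandem-pore channel Kcnk16 and the calcium channel partner Cacna2d1 were among the 20 that were higher, and Kcnq3 and Kcnk5 were the 2 that were lower. The comparison used cells of at least 100000 reads in the 3 combinations where both classes had 10 cells: HZ at 21 somites, HZ at 24 and Ngn3Cre at 24. Of 93 members tested, 20 (21.5%) were higher and 2 (2.15%) lower by edgeR at an adjusted p of 0.05, against 8.85% and 9.52% of all 15418 genes tested. The median log2 fold change was 2.34 for the members tested and 0.09 for all genes. Median depth was 469767 reads in endocrine-marker cells and 606978 in remaining cells. In the combination Ngn3Cre at 24 somites the remaining cells numbered 10, and their 6 mesenchyme markers summed to 1498 CPM, against 79.9 to 122 CPM in the 4 HZ class pools; the part of this in the results was not tested.

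**Figure D1:**
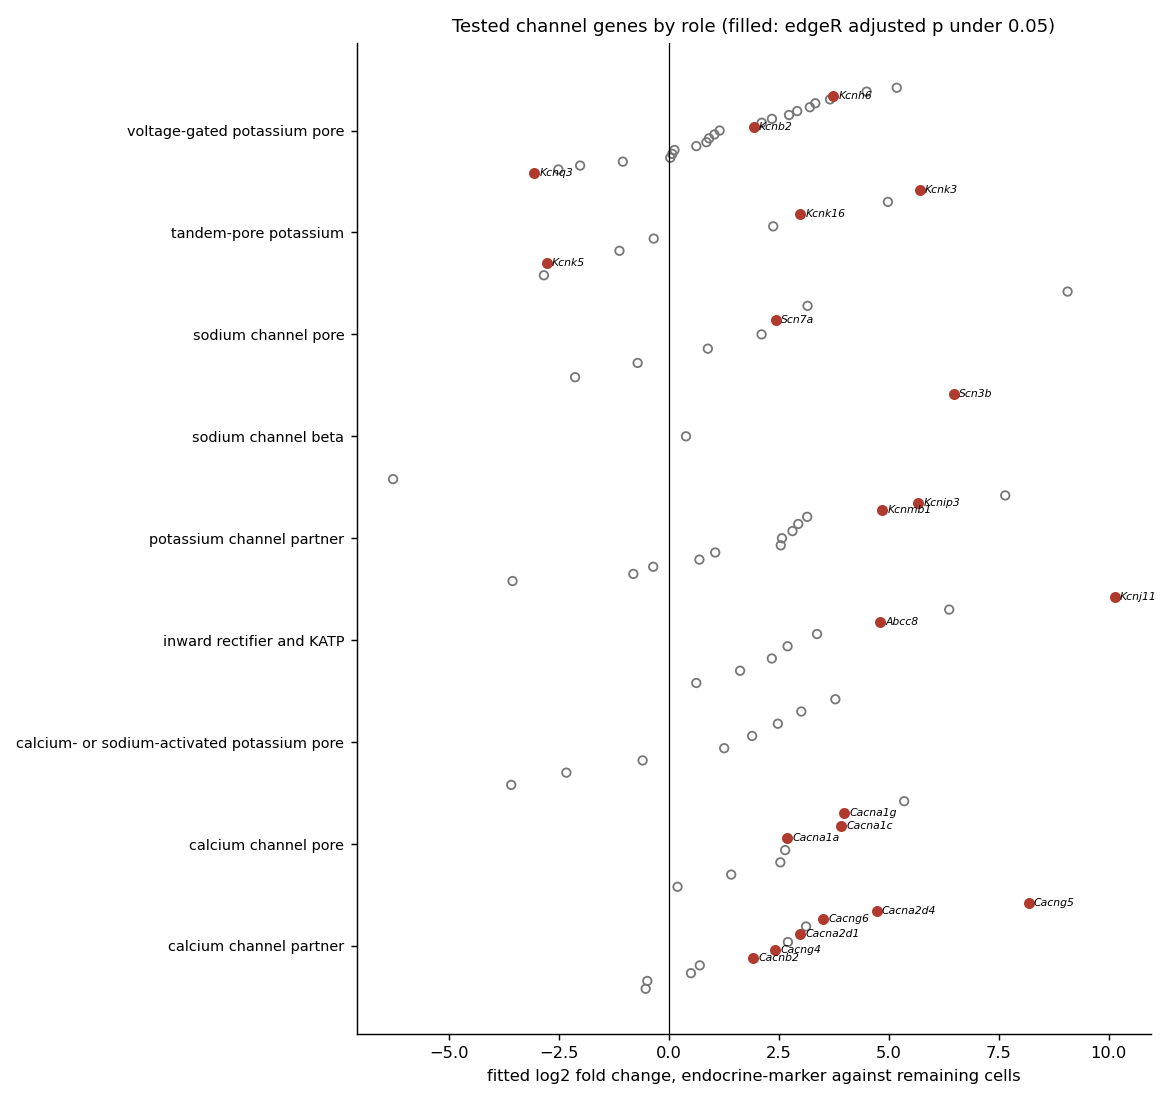
Each point is 1 of the tested members (Kcnq1ot1 and the members not reported here left out), placed by its fitted log2 fold change (endocrine-marker against remaining cells, x axis) and its role (y axis); filled and named points passed edgeR's adjusted p of 0.05. The 2 filled points left of 0 are Kcnq3 and Kcnk5, and the fitted value of Kcnj11, which had no read in the remaining cells, depends on the model's prior count.

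Both subunits of the KATP channel were higher in endocrine-marker cells. Abcc8 measured 122, 204 and 306 CPM in the endocrine-marker cells of HZ at 21, HZ at 24 and Ngn3Cre at 24 somites, and 7.76, 5.65 and 7.78 CPM in the remaining cells of the same 3. The 2 classes did not overlap, and the log2 fold change was 4.79 ± 0.32 (SE, n = 3 pools a class; edgeR adjusted p = 5.68e-06). Kcnj11, its pore partner, measured 5.51, 5.99 and 6.93 CPM in endocrine-marker cells and had no read in any of the 3 remaining pools. Its 625 reads against 0 put it at least 101-fold higher in endocrine-marker cells, taking 3 reads over the 3 pools as the floor (edgeR adjusted p = 0.00696). Abcc8 (chr7:46104523-46180033) and Kcnj11 (chr7:46093953-46100764) lie 3758 bases apart on the minus strand of GRCm38. No other inward rectifier passed: of 8 tested genes of this role 2 were higher and none lower, and Kcnj6, a G protein-gated rectifier, had 0.11, 0.54 and 1.79 CPM in endocrine-marker cells and no read in the remaining pools.

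The pair was detected unevenly. Among cells of at least 100000 reads, 86.9% of 389 endocrine-marker cells had Abcc8 at 10 CPM or more (exact Clopper-Pearson 95% interval 83.1 to 90.1%), against 24.4% with Kcnj11 (20.2 to 29.0%). After each cell was thinned to 100000 reads, 88.2% and 25.4% had at least 1 read. Of the 95 endocrine-marker cells with Kcnj11 at this level, 91 (95.8%) also had Abcc8, and these 91 were 26.9% of the 338 with Abcc8. In hepatic-marker cells, the class set beside them, Abcc8 reached 10 CPM in 12.9% of 31 cells at a median depth of 948628 reads (3.63 to 29.8%), and in remaining cells in 15.8% (11.5 to 21.1%). The 31 hepatic-marker cells had 22.7 CPM of Abcc8 when summed, and what part of either share is free RNA was not tested. Per length, the deposited TPM of Abcc8 averaged 86.8 and that of Kcnj11 12.6 in endocrine-marker cells. These intervals cover counting error only.

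All 8 calcium channel pores tested had a positive fitted value, and 3 passed. Positive values were found in 79.6% of all members tested and 53.6% of all genes, and in all 8 inward rectifier genes tested. Cacna1c, the pore of an L-type channel, measured 62.1, 66.5 and 127 CPM in endocrine-marker cells and 2.71, 10.1 and 5.51 CPM in remaining cells (3.91 ± 0.42 on the log2 scale, SE; edgeR adjusted p = 0.000129). Cacna1g, a T-type pore, measured 18.0, 9.56 and 9.20 against 0.44, 0.47 and 1.94 CPM (edgeR adjusted p = 0.0131), and Cacna1a, a P/Q-type pore, 17.2, 14.5 and 22.8 against 1.54, 5.41 and 2.59 CPM (edgeR adjusted p = 0.0174). For these 3 genes every endocrine-marker pool lay above every remaining pool. The other L-type pore that islets use, Cacna1d, did not pass (1.41 ± 0.75 on the log2 scale, SE; edgeR adjusted p = 0.237), nor did the T-type Cacna1h, at 33.5, 27.5 and 19.9 against 15.3, 17.8 and 47.8 CPM. No calcium pore was lower.

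The partner subunits held the largest group of calls, 6 of 12 tested. Cacna2d1, an alpha2delta subunit that helps carry the pore to the membrane, measured 745, 433 and 272 CPM in endocrine-marker cells and 82.0, 68.1 and 32.2 CPM in remaining cells. In each combination the endocrine-marker value was the higher, and the log2 fold change was 2.98 ± 0.18 (SE; edgeR adjusted p = 3.46e-06). Cacna2d4, of the same family, measured 22.0, 15.2 and 40.9 against 0.55, 3.30 and 0.16 CPM (edgeR adjusted p = 0.00603). Among the gamma family, relatives of skeletal muscle and glutamate receptor subunits, Cacng6 measured 56.8, 25.0 and 27.5 against 3.37, 3.30 and 2.43 CPM (edgeR adjusted p = 0.000481). Cacng5 had 1894 reads against 2, a ratio of 458 (127 to 3787, counting error only), and measured 11.4, 12.5 and 25.3 CPM in endocrine-marker cells. Cacng4 was higher too (2.40 ± 0.71 on the log2 scale, SE; edgeR adjusted p = 0.0378), a call lost without any 1 of the 3 combinations. Beta subunits, which sit on the inner face of the pore, split: Cacnb2 measured 64.5, 72.9 and 54.6 against 22.0, 18.4 and 11.7 CPM (1.91 ± 0.30, SE; edgeR adjusted p = 0.00123). Cacnb3 did not pass, at 33.6, 39.1 and 34.1 against 35.5, 42.8 and 91.2 CPM (edgeR adjusted p = 0.306). The difference between the 2 beta genes was not tested. Cacnb2 overlaps antisense genes in its exons, and the sources used here do not say whether reads were counted by strand, so part of its count may be theirs; the same holds for Cacna1a, Cacna1d, Cacna1h, Kcnma1, Kcnmb4, Kcnq1ot1, Kcnj6, Kcnk1, Kcnk2, Kcnk3, Kcnq1 and Scn9a.

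**Figure D2:**
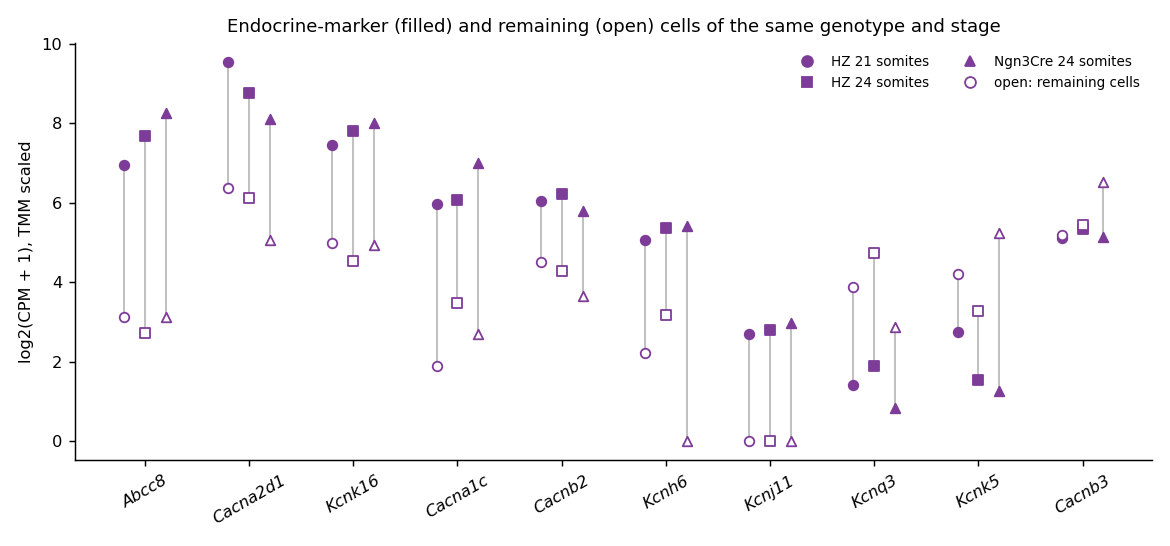
For 10 members, the y axis gives log2(CPM + 1) after TMM scaling in endocrine-marker cells (filled) and in remaining cells of the same genotype and stage (open), joined by a line. Filled symbols lie above open ones for Abcc8 through Kcnj11 and below them for Kcnq3 and Kcnk5, while for Cacnb3 they lie close at HZ and below at Ngn3Cre.

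Tandem-pore genes passed in both directions. Kcnk16, an alkaline-activated leak channel of pancreas, measured 175, 221 and 255 CPM in endocrine-marker cells and 30.6, 22.1 and 29.5 CPM in remaining cells (2.98 ± 0.24, SE; edgeR adjusted p = 1.97e-05). Its neighbour Kcnk5, an acid-sensitive leak channel known from kidney and other epithelia, went the other way, with 5.70, 1.94 and 1.41 against 17.6, 8.79 and 36.9 CPM (-2.79 ± 0.74, SE; edgeR adjusted p = 0.0231). The genes lie on the minus strand of chromosome 14, Kcnk16 at chr14:20261376-20269199 and Kcnk5 at chr14:20140057-20181809 (GRCm38), with 79566 bases between them, and their promoters are those printed above. Kcnk3, another acid-sensitive member, measured 15.2, 14.2 and 13.7 against 0.07, 0 and 4.38 CPM (5.69 ± 1.54, SE; edgeR adjusted p = 0.0254). Kcnk1 (-1.13 ± 0.39, SE; edgeR adjusted p = 0.0685) and the mechanosensitive Kcnk2 (-2.85 ± 1.05, SE; edgeR adjusted p = 0.0885) did not pass. Kcnk2 measured 23.7, 40.9 and 2.43 CPM in the remaining cells, the low value being that of Ngn3Cre. Of 8 tandem-pore genes tested 2 were higher and 1 lower.

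Of 24 voltage-gated potassium pores tested 3 were higher and 1 lower. Kcnh6, an ERG-type channel, measured 32.1, 40.4 and 41.8 against 3.70, 8.08 and 0 CPM (3.73 ± 0.87, SE; edgeR adjusted p = 0.0121), while its relative Kcnh2 measured 12.1, 9.44 and 20.3 against 8.97, 8.24 and 27.1 CPM and did not pass (edgeR adjusted p = 0.946). The delayed rectifier Kcnb2 was higher, at 30.0, 27.9 and 15.7 against 5.57, 9.34 and 4.70 CPM (edgeR adjusted p = 0.0175). Kcnq3, an M-current subunit known from neurons, was lower, at 1.69, 2.72 and 0.80 against 13.7, 25.6 and 6.32 CPM (-3.07 ± 0.66, SE; edgeR adjusted p = 0.00816). Kcnq1 stayed below 4 CPM in both classes and did not pass.

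Partners and sodium channels added a few genes at lower levels. Kcnmb1, a beta subunit of the large-conductance calcium-activated channel, measured 15.9, 11.5 and 25.5 against 0.15, 0.31 and 3.24 CPM (4.85 ± 0.91, SE; edgeR adjusted p = 0.00374). The pore it serves, Kcnma1, measured 2.89, 2.48 and 4.70 against 0.81, 0 and 0.32 CPM and did not pass (edgeR adjusted p = 0.152), and none of the 8 calcium- or sodium-activated pores passed. Kcnip3, a calcium sensor that binds potassium channels and DNA, measured 34.6, 16.6 and 13.2 against 0.15, 0 and 7.94 CPM (edgeR adjusted p = 0.0384). Scn7a, a sodium-sensing member of the sodium channel family, measured 18.9, 54.1 and 5.76 against 8.35, 9.57 and 0.16 CPM (edgeR adjusted p = 0.0232). The beta subunit Scn3b had 299 reads against 2, a ratio of 72.4 (19.9 to 600, counting error only; edgeR adjusted p = 0.0332). The pores Scn3a (edgeR adjusted p = 0.0669), Scn8a (edgeR adjusted p = 0.227) and Scn9a (edgeR adjusted p = 0.0699) did not pass.

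This count is sensitive to how cells were classed and to which combinations were used. With a marker threshold of 20 CPM in place of 50, 5 members were higher and 1 lower, and Abcc8 (log2 fold change 2.54, edgeR adjusted p = 0.275) and Kcnk16 (1.96, edgeR adjusted p = 0.105) no longer passed. That fit also rested on other combinations: HM at 24 and HZ at 18 somites came in, and Ngn3Cre at 24, with 8 remaining cells, dropped out. The part of the threshold and that of the combinations cannot be told apart. At 50 CPM, 12 members were higher and 1 lower without HZ at 21 somites, and 5 were lower without Ngn3Cre at 24. Of the 2 lower genes, Kcnq3 no longer passed without HZ at 21 (edgeR adjusted p = 0.0555) or HZ at 24 (edgeR adjusted p = 0.133), and Kcnk5 not without Ngn3Cre at 24 (edgeR adjusted p = 0.0638). Kcnb2 was lost without either HZ combination (edgeR adjusted p = 0.166 and 0.0672) and Scn3b without any 1 of the 3. Cacna1a, Cacna1g, Kcnip3 and Kcnk3 were lost without HZ at 21, and Scn7a without HZ at 24. Abcc8, Kcnj11, Kcnk16, Cacna2d1, Cacna2d4, Cacna1c, Cacnb2, Cacng5, Cacng6, Kcnh6 and Kcnmb1 passed without any 1 combination.

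Levels of different genes can be set side by side only per length. In endocrine-marker cells the 8 highest mean TPM values were those of Kcnk16 (482), Cacna2d1 (112), Abcc8 (86.8), Cacng6 (31.7), Cacnb2 (24.3), Cacnb3 (22.8), Kcnk1 (22.0) and Kcnh6 (21.9). In remaining cells they were Kcnk16 (53.5), Kcnk1 (34.9), Cacnb3 (30.7), Kcnk2 (13.6), Cacna2d1 (12.4), Kcnmb4 (10.5), Kcne1l (9.27) and Cacnb2 (9.17). Kcnk16 thus led in both classes. These means run over all cells of a class, pooled over genotypes and stages. In the 6 pools with at least 10 endocrine-marker cells Kcnk16 was highest in each (342 to 762 TPM), and Cacna2d1 and Abcc8 were the next 2. Cacna2d1 was above Abcc8 in Ngn3Cre at 21 somites and HZ at 21 and 24, and below it in Ngn3Cre at 24 and 27 and HZ at 27. At 10 CPM Kcnk16 was present in 91.3% of endocrine-marker cells (exact Clopper-Pearson 88.0 to 93.9%), 44.6% of remaining cells (38.2 to 51.1%) and 25.8% of hepatic-marker cells (11.9 to 44.6%). In 0 of 53 neural-marker cells Kcnk16 reached that level, which allows a share of up to 5.66% when 3 cells are taken as the limit. Of these cells 9.43% had a Kcnk16 read after thinning.

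**Figure D3:**
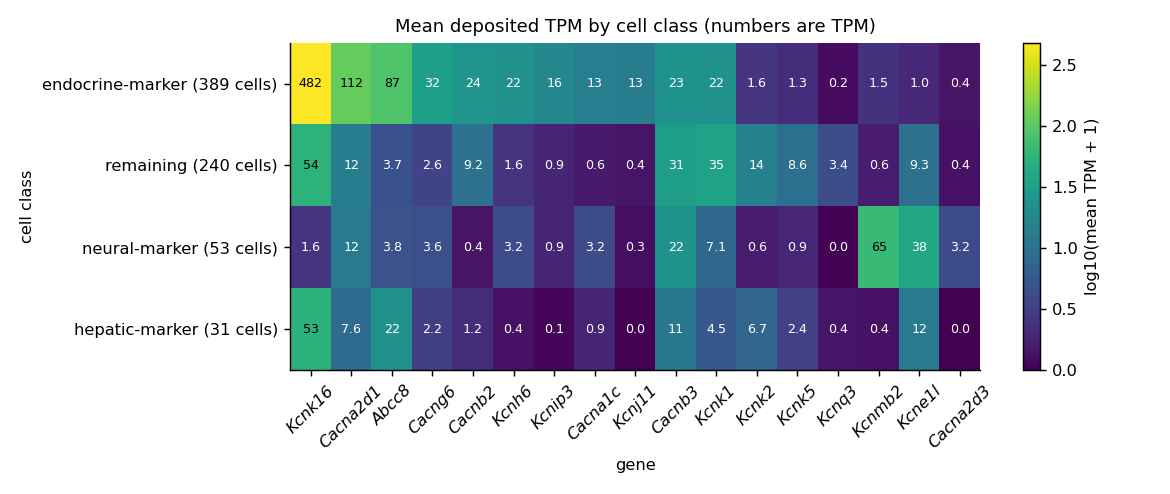
Columns are 17 members, rows are the 4 cell classes (cells of at least 100000 reads), and both the colour, log10(mean TPM + 1), and the printed number give the mean deposited TPM. Kcnk16 reads 482 in the endocrine-marker row, and the highest entry of the neural-marker row is Kcnmb2 at 65.

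In neural-marker cells, which carry genes of neural crest and autonomic neurons, Kcnmb2 had the highest mean TPM of the members. The auxiliary subunit Kcnmb2 averaged 64.9 TPM in 53 neural-marker cells, 1.45 in endocrine-marker and 0.62 in remaining cells, and reached 10 CPM in 60.4% of neural-marker cells. In the Ngn3Cre pool of 27 somites it stood at 50.6 CPM with all cells and 0.43 CPM without neural-marker cells, unscaled. In HZ at 27 somites it stood at 23.4 CPM with all cells and 22.3 CPM without them. These class levels are pooled over genotypes and were not tested.

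In HM pools 5 channel genes were lower than in HZ pools: Abcc8, Cacna2d1, Cacng6, Cacna2d4 and Cacng5. None was higher. Of 120 members tested 5 (4.17%) were lower by edgeR at an adjusted p of 0.05, against 1.38% of 18420 genes. By the same test 0 were higher, against 0.0923%. At an unadjusted p of 0.05 edgeR gave 30 lower and 2 higher, against 8.79% and 4.61% of all genes. DESeq2 at an adjusted p of 0.05 gave 28 lower and 2 higher. For DESeq2 no share of all genes is given, here or below, so nothing particular to channels is read from its counts. The median log2 fold change was -1.46 for the members and -0.09 for all genes, and 74.2% of members had a negative value, against 55.2%. In pools of mixed cells, fewer cells of a type and less RNA per cell cannot be told apart. The 12 endocrine markers summed to 60.7 to 546 CPM in HM pools and 808 to 13373 CPM in HZ pools, so their sum too was lower in HM than in HZ. In HM, Pax4 had no read at 15 and 18 somites and Scg3 none at 18 and 21, and every other marker was detected in every HM and HZ pool. The 8 hepatic markers spanned 81.0 to 8687 CPM in HM and 51.3 to 4548 CPM in HZ, and the part of these cells was not tested.

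Abcc8 measured 6.21, 0.18, 0.65 and 4.99 CPM in HM at 15, 18, 21 and 24 somites, and 16.8, 54.6, 116 and 180.2 CPM in HZ at 18, 21, 24 and 27. The highest HM pool lay below the lowest HZ pool, and the log2 fold change was -5.50 ± 0.51 (SE, 4 pools against 4, with HM at 15 somites alone at its stage and so without weight in this contrast; edgeR adjusted p = 0.000851). Cacna2d1 measured 28.1, 26.1, 22.2 and 26.9 CPM in HM and 118, 351, 274 and 124 CPM in HZ, again without overlap (-3.06 ± 0.37, SE; edgeR adjusted p = 0.00401). HZ at 27 somites has no HM pool of its stage, so HM and HZ meet directly at 18, 21 and 24 somites only. Statements on overlap take all 4 pools of each genotype. The calls for Abcc8 and Cacna2d1 both held without any 1 of the 11 pools. With the pools of under 10 cells added, none of the 5 calls remained: Abcc8 stood at -3.67 (edgeR adjusted p = 0.0631) and Cacna2d1 at -1.58 (edgeR adjusted p = 0.819). HM kept Cacna2d1 at a nearly even level across 4 stages, while HZ peaked at 21 somites.

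The other 3 calls concern less abundant calcium channel partners. Cacng6 measured 4.23, 0, 0.22 and 1.03 CPM in HM and 4.50, 25.5, 15.3 and 11.0 CPM in HZ (-5.22 ± 0.77, SE; edgeR adjusted p = 0.0111). Cacna2d4 measured 0, 0.18, 0.03 and 0.17 CPM in HM and 1.11, 9.40, 10.1 and 9.48 CPM in HZ (-5.99 ± 0.97, SE; edgeR adjusted p = 0.0188). For Cacng5 the values were 0, 0, 0.90 and 0.41 CPM in HM and 1.19, 4.84, 7.14 and 11.6 CPM in HZ (-3.87 ± 0.78, SE; edgeR adjusted p = 0.0439). In all 3 genes HM and HZ did not overlap. The call for Cacng5 was lost in 10 of 11 fits that each left out 1 pool, that for Cacna2d4 in 4 and that for Cacng6 in 1.

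**Figure D4:**
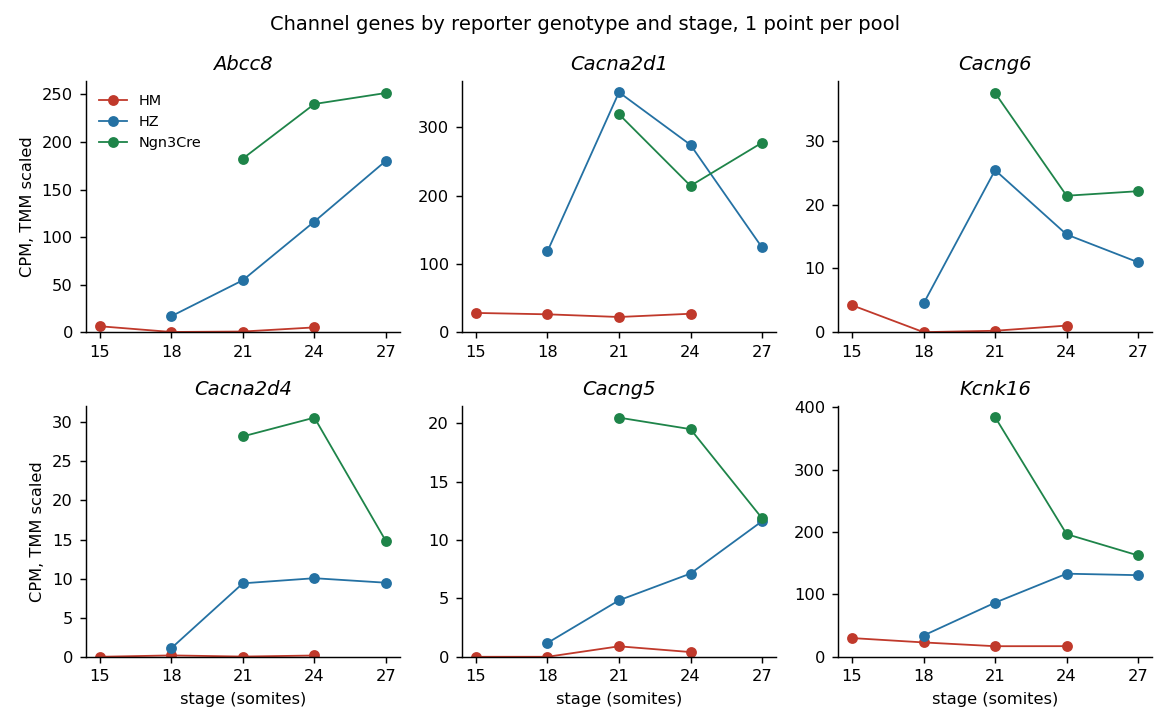
Each point is 1 pool of a genotype and stage; the x axis gives somites and the y axis CPM after TMM scaling, with HM in red, HZ in blue and Ngn3Cre in green. The HM points of Abcc8 lie between 0.18 and 6.21 CPM, below all HZ points (16.8 to 180.2 CPM), and those of Kcnk16 approach the HZ point of 18 somites.

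Several channels of the endocrine-marker cells did not pass between HM and HZ. Kcnk16 measured 30.0, 23.0, 17.0 and 17.0 CPM in HM and 34.1, 86.7, 133 and 131 CPM in HZ (-2.17 ± 0.51, SE; edgeR adjusted p = 0.0826). Kcnh6 (edgeR adjusted p = 0.0962), Kcnip3 (edgeR adjusted p = 0.0628) and Cacna1c (edgeR adjusted p = 0.115) missed the threshold too. For Cacna1c the HM values were 1.19, 11.8, 0.11 and 1.42 CPM and the HZ values 20.6, 27.4, 40.8 and 25.0 CPM. Kcnj11 had no read in 3 HM pools and 0.26 CPM in HM at 24 somites, against 1.39, 2.30, 3.41 and 3.8 CPM in HZ (edgeR adjusted p = 0.115). On the other side of 0, Kcnq3 measured 3.70, 11.1, 18.9 and 39.2 CPM in HM and 3.23, 6.65, 12.6 and 0.32 CPM in HZ (1.91 ± 0.64, SE; edgeR adjusted p = 0.223). Cacnb3 (0.23 ± 0.24, SE), Kcnk1 (0.21 ± 0.31, SE) and Scn8a (-0.02 ± 0.31, SE) had small fitted differences and did not pass (edgeR adjusted p = 0.729, 0.825 and 0.996).

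Within the remaining cells alone, those below the marker cut-offs, no member passed by edgeR between HM and HZ, and 13 of 16112 genes were lower. These cells were not free of endocrine markers: 26 of them had 3. In HZ remaining cells of at least 100000 reads the 12 markers summed to 1035 CPM at 21 somites and 722 CPM at 24. The part of this in the values that follow was not tested. Cacna2d1 had a fitted value of -1.34 ± 0.33 (log2, SE; edgeR adjusted p = 0.393), from 20.3 to 29.4 CPM in 4 HM pools and 42.3 to 85.5 CPM in 3 HZ pools, unscaled and without overlap. Kcnk16 had -0.15 ± 0.34 (SE; edgeR adjusted p = 0.997), from 19.0 to 27.2 CPM in HM and 22.2 to 30.4 CPM in HZ. Abcc8 had -2.91 ± 1.27 (SE; edgeR adjusted p = 0.996). When neural-marker cells alone were left out, 8 members were lower in HM, the 3 added being Kcnh6, Kcnk16 and Kcnip3. These 3 lay just under the threshold (edgeR adjusted p = 0.0474, 0.0485 and 0.0493). Calls rose for all genes too, with 318 of 18338 lower in that fit, against 254 of 18420 with all cells.

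Ngn3Cre pools, compared with the same HZ pools, showed no channel gene that passed. By edgeR 0 of 120 members were higher, against 0.00543% of 18420 genes, and 0 lower, against 0.331%. At an unadjusted p of 0.05 edgeR gave 4 higher and 3 lower, against 3.47% and 7.05% of all genes. DESeq2 called 1 in each direction. Abcc8 measured 182.6, 239.9 and 251.5 CPM in Ngn3Cre at 21, 24 and 27 somites, above all 4 HZ pools (1.09 ± 0.40 on the log2 scale, SE; edgeR adjusted p = 0.335). Kcnk16 measured 384, 197 and 162 CPM (1.27 ± 0.44, SE; edgeR adjusted p = 0.307), and Cacna1c 89.2, 101 and 94.9 CPM (1.99 ± 0.75, SE; edgeR adjusted p = 0.355), both also above all HZ pools. Kcnq3 measured 0.27, 1.16 and 0.30 CPM (-2.97 ± 0.83, SE; edgeR adjusted p = 0.193). Endocrine markers summed to 13013 to 23045 CPM in Ngn3Cre. With endocrine-marker cells alone, cells of the same class, the fitted value was 0.61 ± 0.16 for Abcc8 (SE; edgeR adjusted p = 0.753) and 0.61 ± 0.23 for Kcnk16 (SE; edgeR adjusted p = 0.901).

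No member changed with stage across the 11 pools by edgeR: 0 of 98 tested in either direction, as for 0% of all 16478 genes. At an unadjusted p of 0.05 edgeR gave 13 positive and 3 negative, against 4.83% and 3.53% of all genes. DESeq2 called 3 and 1. Values in single classes give the course for a few members. In endocrine-marker cells Abcc8 measured 30.3, 122, 209 and 221 CPM (unscaled) in HZ at 18, 21, 24 and 27 somites and 196, 312 and 337 CPM in Ngn3Cre at 21, 24 and 27. It was higher at each later stage in both genotypes, yet the slope of 0.24 ± 0.05 log2 units per somite did not pass (SE; edgeR adjusted p = 0.152). In the remaining cells Kcnk2 measured 6.65, 10.5, 26.6 and 61.6 CPM in HM at 15, 18, 21 and 24 somites and 9.70, 23.2 and 41.1 CPM in HZ at 18, 21 and 24 (0.34 ± 0.05 per somite, SE; edgeR adjusted p = 0.0751). Kcnq3 took a like course there, 3.38, 12.4, 26.3 and 48.7 CPM in HM and 2.56, 13.3 and 25.9 CPM in HZ (0.44 ± 0.08 per somite, SE; edgeR adjusted p = 0.0986). The pool of Ngn3Cre at 24 somites did not follow, with 2.34 CPM of Kcnk2 and 6.08 CPM of Kcnq3. Kcnk5, the other channel of these cells, stayed between 8.83 and 20.2 CPM in HM and HZ.

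Endocrine-marker cells differ in how much Neurog3 they still carry. They were split at 50 CPM of Neurog3 in the 5 pools with enough cells on both sides (Ngn3Cre at 21, 24 and 27 somites, HZ at 21 and 24), a split chosen after values were seen and described without a test. Abcc8 was lower in the Neurog3-high cells in 5 of 5 pools: 151, 228, 244, 114 and 185 CPM, against 332, 349, 376, 135 and 227 CPM in the Neurog3-low cells. Cacna2d1 was higher in them in 5 of 5: 373, 485, 826, 759.6 and 490.4 CPM, against 248, 186, 162, 721 and 419.7 CPM. The gap was widest in Ngn3Cre at 27 somites and small in HZ at 21. Of 38 members with a mean of at least 5 CPM over both sides and all 5 pools, 6 (15.8%) were higher in the Neurog3-high cells in every pool (Cacna2d1, Cacnb3, Kcnc1, Kcnh8, Kcnk1 and Scn8a), against 9.77% of the 10524 genes kept by the same minimum. Abcc8 was the 1 member lower in every pool (2.63%), against 8.46% of those genes, so the count lower is under the background and nothing particular to channels is read from either. Kcnk16 went 2 of 5 pools one way and 3 the other.

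**Figure D5:**
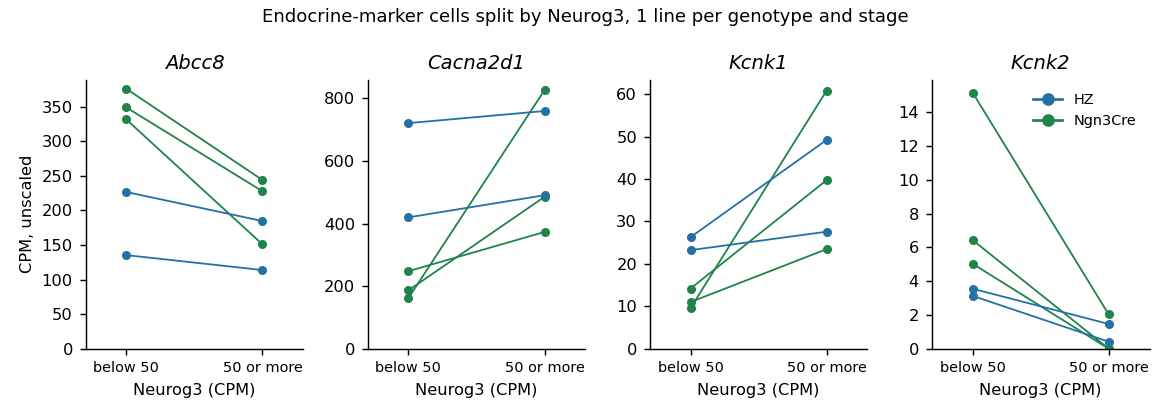
For 4 members, each line joins the unscaled CPM of endocrine-marker cells below 50 CPM of Neurog3 (left) with that of cells at or above it (right), for 1 genotype and stage; blue is HZ and green Ngn3Cre. All 5 lines fall for Abcc8 and Kcnk2, and all 5 climb for Cacna2d1 and Kcnk1.

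A list of 45 other genes, mostly of ion handling, gives the surroundings of these channels. Between endocrine-marker and remaining cells 9 of 42 tested were higher by edgeR and 1 was lower, against 8.85% and 9.52% of all genes tested. The endoplasmic reticulum calcium pump Atp2a3 (4.09 ± 0.60, SE), the calcium-activated cation channel Trpm5 (6.52 ± 1.35, SE) and the pacemaker channel Hcn3 (4.19 ± 1.24, SE) were among the higher ones, and the glucose transporter Slc2a1 was the lower one (-1.70 ± 0.18, SE). Between HM and HZ 3 of 44 were lower, among them Atp2a3 (-4.58 ± 0.52, SE) and Atp2a2 (-1.05 ± 0.17, SE), and none was higher. For all genes tested the shares were 1.38% lower and 0.0923% higher. None of 44 passed between Ngn3Cre and HZ or with stage.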

How the data were processed

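The authors deposited a table of read counts (whole, unscaled reads per gene) and a table of TPM for the same 830 cells. HISAT2 2.1.0, Trimmomatic 0.39 and FastQC 0.11.9 are named in the submitters' processing notes, with builds GRCm38 and mm10; the sources used here do not give the read counter, or the use of strand and of molecular identifiers. Counts were summed per genotype and stage, or also per cell class. Cells were classed at 50 CPM of a marker (endocrine 4 of 12, neural 3 of 11, hepatic 4 of 8), neural and hepatic first. Tests used edgeR 4.0.16 (quasi-likelihood, TMM, default filter on low counts, R 4.3.3) with Benjamini-Hochberg adjustment over all genes tested at 0.05. Genotype tests had stage as a factor and the stage slope had genotype. The class test had the combination as a block. HM and Ngn3Cre were compared with the same HZ pools, so these contrasts share controls. An SE is the log2 fold change divided by the root of the F statistic. No embryo is named, so p-values measure the spread between pools, which may hold few embryos. No doublet caller was run. Pools of under 10 cells (Ngn3Cre 18, HM 27 and HZ 15 somites) were left out.

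DESeq2 1.42.0 and limma 3.58.1 (log2 of mean CPM or TPM, pseudocount 1) were alternatives. Tested on simulated data with 200 genes changed by 3 log2 units, the fits recovered 77% (HM against HZ), 78% (Ngn3Cre against HZ) and 73.5% (classes). The changed genes were drawn from those with enough expected reads in the smallest pool, with the same simulated spread for every gene. The shares therefore do not show power for members of low counts or of wider spread. For the stage slope 100% were recovered, but there the change was 3 log2 units per 3 somites. That is steeper than the slopes given above, so the 100% does not show power for slopes of their size. Named members are those called, 23 landmark channels, and the 8 highest by TPM in each of 2 classes. A few named genes are not reported here; all fits and counts include them. Members and lists were chosen with earlier results of these data known. Positions are from GENCODE vM21, which holds 135 of the 136 symbols.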

Additional observations from a re-analysis of the deposited data

Results flagged for a closer look

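In 4 cases a single pool lay far from the other 3 of its genotype, by Dixon's criterion for 4 pools at 95%; 27 groups were tested and chance alone gives about 1 in 20. Cacna2d4 stood at 1.11 CPM in HZ at 18 somites, where the other HZ pools held 9.40 to 10.1 CPM. Cacna1c stood at 11.8 CPM in HM at 18 somites, against 0.11 to 1.42 CPM in the other HM pools. Cacnb3 stood at 53.2 CPM in HM at 24 somites (others 37.4 to 38.9 CPM). Kcnk1 stood at 52.2 CPM in HM at 15 somites (others 34.5 to 37.4 CPM).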

How the results depend on the processing

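No paired analysis was possible because the replicate numbers in the labels only name cells, and the pools carry none; the class test already holds the genotype and stage combination as a block. For HM against HZ, 5 members were lower as reported, 28 with DESeq2 (2 higher), 8 without neural-marker cells, 2 with the pools of the 2 genotypes only, 0 with the pools of under 10 cells added, 0 in remaining cells only, and 2 to 7 when 1 pool was left out (3 without Ngn3Cre or HM at 21 somites, 2 without HZ at 21). In remaining cells the value for Cacng5 turned to 0.0160. For Ngn3Cre against HZ, DESeq2 gave 1 higher and 1 lower, the 2 genotypes alone 1 higher, and leaving out 1 pool 0 to 1 lower (1 without either pool of 27 somites). For the slope, DESeq2 gave 3 and 1, and adding small pools 1 higher; Abcc8 turned to -0.0572 in remaining cells. For the classes, 20 were higher and 2 lower as reported. DESeq2 gave 31 and 6, the 20 CPM threshold, on other combinations, 5 and 1, and leaving out 1 combination 12 to 19 and 1 to 5. The number lower was 4 without the filter and 4 with limma on CPM. It was 5 with at least 6 markers against at most 1, a fit without Ngn3Cre at 24 somites. With every class pool, a fit added after seeing the data, it was 4. The causes were not tested. Upper quartile scaling changed no call. Depth limits low members: 10 had under 10 reads in all.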

Other observations

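HM held 6 endocrine-marker cells, too few for a pool. In 4 of the 5 from 24 somites, Neurod1 stood at 941 to 1395 CPM while Abcc8 stood at 0 to 3.92 CPM and Kcnk16 at 0. The remaining cell of that stage had 11245 CPM of Ghrl, the ghrelin gene, with 848 CPM of Cacna2d1, 121 of Kcnk16, 43.3 of Abcc8 and 7.22 of Kcnj11. The cell from 15 somites had 24941 reads, so its values rest on few reads.

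Across 389 endocrine-marker cells of at least 100000 reads, Spearman's rho was 0.51 between Abcc8 and Gcg, the glucagon gene, and -0.45 between Abcc8 and Neurog3. For Cacna2d1 the values were -0.37 with Gcg and 0.39 with Neurog3, and Scn7a had 0.37 with Ghrl. The cells share pools and stages, so these are descriptions.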
